A study of Mus musculus with 9 samples.

Results

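This account follows 42 genes of the DNA damage response and DNA repair, of 32976 genes counted, in tumor-infiltrating CD8+ T cells. The genes were taken as a list by symbol, and 3 of them (Ppp1r10, Gadd45a and Dnase2a) are on it because the study names them as lower in one group, so their levels are given as a description without a test. Every library came from wild-type mice that carried CT26.WT colon tumors under the skin and received the PD-1 antibody RMP1-14 on days 3, 6 and 9, so no group was untreated. CD8+CD44+ cells that bound a tetramer of the tumor peptide GSW11 were sorted by the strength of tetramer staining. TetHighProg holds high avidity cells from progressing tumors (replicates 1, 2 and 5), TetLowReg low avidity cells from regressing tumors (replicates 6, 7 and 8) and TetLowProg low avidity cells from progressing tumors (replicates 9, 10 and 12). Per the study, TetHighProg and TetLowProg were both sorted from 3 progressing tumors and TetLowReg from 3 regressing ones. The labels do not tie the libraries to tumors, so the fits treat them as separate samples and p-values measure only the spread between these libraries.

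Cells answer DNA damage in layers. The kinases Atm and Atr sense breaks and stalled replication, pass the signal through Chek1, Chek2 and the histone variant H2ax, and raise the activity of p53 (Trp53), which Mdm2 and Mdm4 hold down. p53 and other stress pathways switch on genes such as the Gadd45 family, while separate sets of enzymes mend the lesion by homologous recombination, end joining, base excision, nucleotide excision or mismatch repair. T cells that divide quickly in a tumor replicate much DNA and rearrange their receptor genes with end-joining factors during development.

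The libraries held 16405306 to 36429515 gene counts, and the number of genes with at least 10 counts ran from 599 to 8071. Mitochondrial genes took 44.5% of the counts in TetLowReg replicate 7 and 14.2% in replicate 8, against 1.36% to 6.07% in the other libraries, which lowers the CPM of all other genes in those 2. The number of genes with at least 10 counts was at most 1298 in 4 libraries. These were replicates 1 and 2 of TetHighProg, replicate 6 of TetLowReg and replicate 10 of TetLowProg. RNA had been amplified by the Smart-seq2 protocol without molecular identifiers, so PCR copies were counted as reads and intervals on counts cover counting error only. Of 12 T cell markers, 3 to 10 were detected in TetHighProg, 7 to 11 in TetLowReg and 5 to 12 in TetLowProg. Cd8a had 0 counts in TetHighProg replicates 1 and 2 and TetLowProg replicate 10, where the other CD8 chain gene, Cd8b1, had 75010 to 79539. Each of 5 B cell markers had 0 or 1 count in every TetHighProg library and 0 in the 2 low avidity libraries with few genes. TetLowReg replicates 7 and 8 had 4 and 5 of these markers, TetLowProg replicate 9 had 1 and replicate 12 had 5. Their summed share of counts was at most 3.949e-06% in TetHighProg, 0 to 0.0960% in TetLowReg and 0 to 0.153% in TetLowProg. Of 12 macrophage and dendritic cell markers, 1, 0 and 1 were detected in TetHighProg, 0, 4 and 3 in TetLowReg, and 2, 0 and 2 in TetLowProg. The myeloid gene Lyz2 had 51557, 0 and 3744 counts in TetHighProg, 5, 299515 and 19392 in TetLowReg, and 0, 0 and 18079 in TetLowProg. TetLowReg replicate 7 also held Cd68 (6085 counts), Adgre1 (214) and Itgam (132), and C1qa was at 0 throughout. Of 6 erythroid markers, 3 (Hba-a1, Hba-a2 and Hbb-bs) were detected in TetLowReg replicate 7, replicate 8 and TetLowProg replicate 12 and none in any other library. Of 9 tumor and stroma markers 0 to 6 were detected, with Krt8 and Krt18 at 0 throughout, and of 15 proliferation markers 1, 1 and 4 were detected in TetHighProg, 0, 11 and 9 in TetLowReg, and 9, 2 and 10 in TetLowProg. The part that other cells or the number of genes detected had in any result below was not tested.

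Most values of the repair genes were either 0 or large. Of 378 values (42 genes in 9 libraries), 225 (59.5%) were 0, 27 lay between 1 and 9, 17 lay from 10 to below 100, 39 from 100 to below 1000, and 70 were 1000 or more. A gene was therefore usually seen strongly in a library or not at all. The typical repair gene was detected, at 10 counts or more, in 2 or 3 of the 9 libraries (10 and 11 genes). Parp2 alone reached 10 counts in all 9, Ppp1r10 and Xrcc6 did so in 7, and Lig3 and Ung in none.

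**Figure D1:**
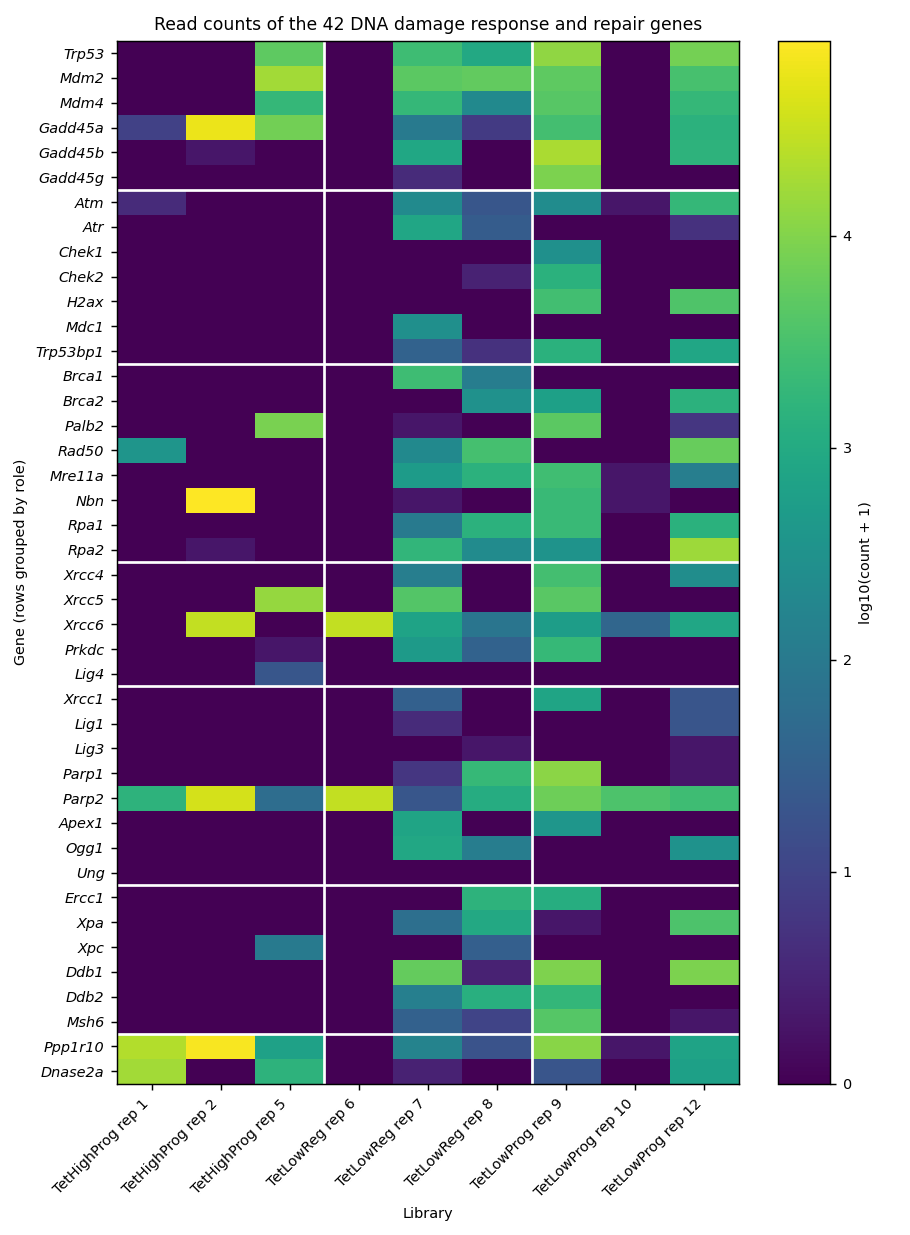
Read counts of the 42 genes (rows, grouped by role between white lines) in the 9 libraries (columns, grouped between white lines), coloured by log10(count + 1). The mostly dark columns are the 4 libraries with the fewest genes, where 2 to 5 of the repair genes had at least 10 counts.

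The number of repair genes detected varied widely within both low avidity groups. In order of replicate number, TetHighProg had 4, 5 and 11 of the 42 genes, TetLowReg 2, 27 and 21, and TetLowProg 31, 2 and 23. Group means came to 6.67 ± 3.79 genes (SD, n = 3) for TetHighProg, 16.67 ± 13.05 for TetLowReg and 18.67 ± 14.98 for TetLowProg, and the ranges overlapped. The same libraries were low for genes at large: 2.65% to 14.1% of protein-coding genes were detected in TetHighProg, 3.40% to 34.9% in TetLowReg and 5.13% to 35.4% in TetLowProg. Repair genes were found more often than that, at 73.8% of the list against 35.4% of protein-coding genes in TetLowProg replicate 9 and 26.2% against 14.1% in TetHighProg replicate 5. In TetLowProg replicate 10 the order was the other way, with 4.76% against 5.13%.

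**Figure D2:**
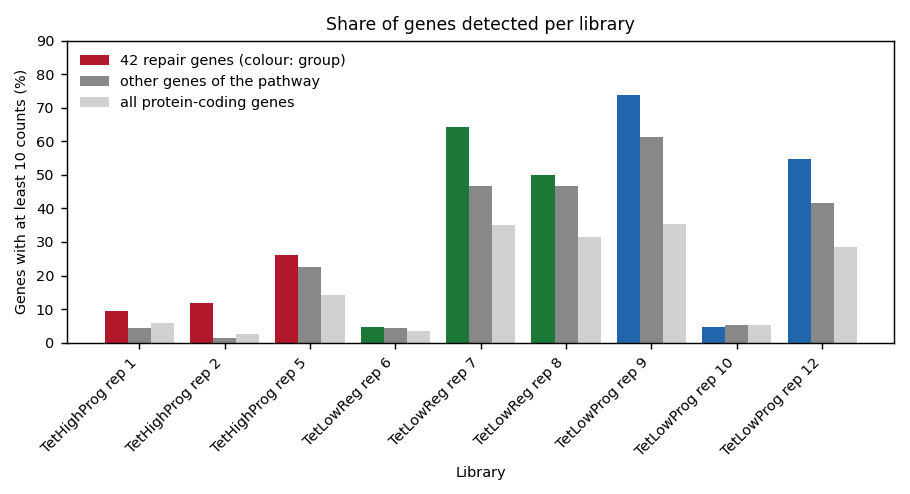
Percent of genes with at least 10 counts in each library, for the 42 repair genes (coloured by group), 137 other genes of the pathway (dark grey) and all protein-coding genes (light grey). The coloured bars follow the grey ones, from 4.76% in TetLowReg replicate 6 and TetLowProg replicate 10 to 73.8% in TetLowProg replicate 9.

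Of the 42 genes, 24 had 0 counts in all TetHighProg libraries, against 4 in all TetLowReg and 5 in all TetLowProg libraries. Of protein-coding genes at large, 75.2%, 37.9% and 53.2% were at 0 throughout the same groups, against 57.1%, 9.52% and 11.9% of the repair genes. Among those 24, 22 (91.7%) had at least 10 counts in a low avidity library, against 43.6% of protein-coding genes at 0 in TetHighProg. Of the 22, 5 genes did so in a single library, 7 in 2, 8 in 3 and 2 (Mre11a and Rpa1) in 4 of 6. Such a difference in bulk RNA can come from fewer cells that express a gene, from less RNA per cell or from libraries in which few genes were detected. In TetHighProg replicates 1 and 2, 1298 and 599 genes were detected. These sources cannot be told apart, and a 0 is not read as absence from the cells. The summed share of all gene counts that fell on the list was 0.124%, 1.12% and 0.249% in TetHighProg, 0.264%, 0.0811% and 0.123% in TetLowReg, and 0.355%, 0.0139% and 0.204% in TetLowProg. TetHighProg replicate 2 set the high mean of its group, with 284153 counts on 5 genes. The mean difference from TetHighProg was -0.342 percentage points for TetLowReg and -0.308 for TetLowProg, and without that library it was -0.0303 and 0.00421.

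The 3 genes the study singled out are described first. Ppp1r10 (chromosome 17, 36227326 to 36243441 on the plus strand, GRCm39) encodes PNUTS, a nuclear subunit that targets protein phosphatase 1. It had 22317, 73168 and 657 counts in TetHighProg, 0, 156 and 17 in TetLowReg, and 11098, 1 and 713 in TetLowProg. Every TetHighProg library lay above every TetLowReg library, and TetLowProg spanned both ranges. As counts per 1000000 gene counts (CPM), TetHighProg averaged 1195 ± 1501 (SD, n = 3), TetLowReg 1.77 ± 2.23 and TetLowProg 109 ± 170. The fitted log2 fold change of TetLowReg against TetHighProg was -9.35 (SE 4.07). It ran from -11.36 (without TetLowReg replicate 7) to -7.02 (without TetHighProg replicate 2), and was -2.52 without the 4 libraries with the fewest genes.

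Gadd45a (chromosome 6, 67012070 to 67014441 on the minus strand) encodes a small stress protein that slows the cell cycle after damage. Its counts were 8, 58882 and 7471 in TetHighProg, 0, 100 and 6 in TetLowReg, and 2771, 0 and 1428 in TetLowProg. TetHighProg replicate 1, with 8 counts, lay below TetLowReg replicate 7, so these groups overlapped. Mean levels were 885 ± 1258 CPM, 1.04 ± 1.49 CPM and 40.5 ± 38.4 CPM in the same order, with a log2 fold change of -9.67 (SE 4.38) for TetLowReg against TetHighProg. Leaving out the same 2 libraries in turn gave -12.45 and -6.30. A long noncoding RNA, E230016M11Rik, overlaps Gadd45a on the other strand and had 0 counts in every library, and reads of the pair could not be told apart by strand.

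Dnase2a (chromosome 8, 85635189 to 85649544 on the plus strand) encodes the acid nuclease that digests DNA in lysosomes. It had 17352, 0 and 1487 counts in TetHighProg, 0, 2 and 0 in TetLowReg, and 19, 0 and 633 in TetLowProg. The TetHighProg library with the most Ppp1r10 and Gadd45a, replicate 2, had no Dnase2a, so the groups overlapped. The log2 fold change of TetLowReg against TetHighProg was -12.39 (SE 6.78), from -15.25 without TetLowReg replicate 7 to -9.52 without TetHighProg replicate 1. Between the low avidity groups, the fold changes of TetLowProg against TetLowReg were 7.49 (SE 5.61) for Dnase2a, 4.63 (SE 3.30) for Ppp1r10 and 4.14 (SE 3.43) for Gadd45a on the log2 scale, each described without a test. With 1 library left out they ran from 2.57 (without TetLowProg replicate 12) to 10.61, from 1.98 (without TetLowProg replicate 9) to 7.40 and from 3.47 (without TetLowReg replicate 6) to 7.54, each highest without TetLowReg replicate 7.

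**Figure D3:**
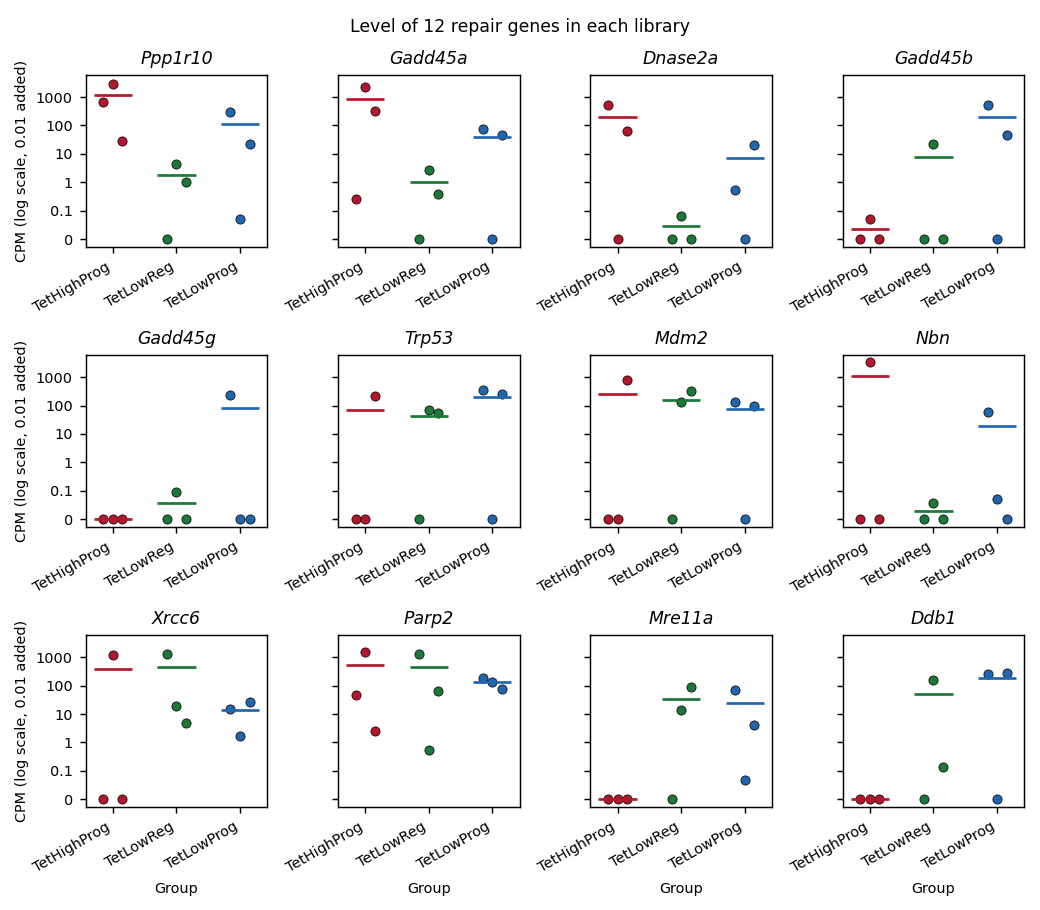
Level of 12 repair genes in each library, in counts per 1000000 gene counts (CPM) on a log axis with 0.01 added, by group (points are libraries, lines are group means). Ppp1r10 is the gene of these 12 whose TetHighProg points all lie above its TetLowReg points, and most panels have points at 0 beside points above 100.

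The 2 relatives of Gadd45a were distributed differently across the libraries. Gadd45b, which T cells use in signaling through the p38 kinase, had 0, 1 and 0 counts in TetHighProg, 0, 839 and 0 in TetLowReg, and 19753, 0 and 1488 in TetLowProg. Gadd45g, a cytokine-induced member, had 0 counts in TetHighProg, 0, 3 and 0 in TetLowReg, and 8813, 0 and 0 in TetLowProg. TetHighProg replicates 2 and 5 thus held Gadd45a with at most 1 count of its relatives, while TetLowProg replicate 9 held all 3. Per kilobase of exon, TetLowProg replicate 9 had 43.0 CPM for Gadd45a, 183 for Gadd45b and 206.0 for Gadd45g, and TetHighProg replicate 2 had 1311 for Gadd45a. Over summed counts, Gadd45g was at least 2572-fold higher in TetLowProg than in TetHighProg, all of it from replicate 9 (two-sided exact permutation test on the libraries, p = 1). The fitted difference of Gadd45b was 12.32 (SE 6.88, edgeR adjusted p = 0.211) on the log2 scale in the same comparison.

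The stretches just upstream of Gadd45a and Gadd45g are shown because Gadd45a was found in all 3 groups and Gadd45g in a single library. They are the 120 bases before the transcription start in RefSeq, build GRCm38.p6, at chr6:67037408-67037527 (minus strand) and chr13:51846555-51846674 (plus strand). Capitals mark matches to a CCAAT box, to a TATA box (the letters TATAAA) or to the octamer ATTTGCAT, each on either strand.
Gadd45a: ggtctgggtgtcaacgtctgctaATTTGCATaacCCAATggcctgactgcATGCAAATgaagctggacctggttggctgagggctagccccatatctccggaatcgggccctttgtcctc
Gadd45g: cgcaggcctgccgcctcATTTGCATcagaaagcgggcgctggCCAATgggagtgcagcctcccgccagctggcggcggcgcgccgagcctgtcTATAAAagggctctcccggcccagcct
Gadd45a held the octamer in both directions around a CCAAT box and no TATAAA, and Gadd45g held 1 octamer, 1 CCAAT box and a TATAAA close to the start. The octamer was looked for after these sequences had been read. It occurred in 3 of 41 promoters of the list (7.32%; the third was that of Parp2) and in 1.74% of all 32851 promoters in the table. A match is a description of letters and not a bound site.

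p53 and its main regulators were seen together. Trp53 had 0, 0 and 4907 counts in TetHighProg, 0, 2503 and 923 in TetLowReg, and 12515, 0 and 7744 in TetLowProg. Mdm2, the ubiquitin ligase that marks p53 for destruction, had 0, 0 and 17354, then 0, 4770 and 5391, then 4988, 0 and 3062. Mdm4, its partner, had 0, 0 and 1929, then 0, 1870 and 212, then 4442, 0 and 1887. All 3 genes were present in the same 5 libraries and at 0 in the same 4, which are the 4 with the fewest genes detected. The groups overlapped for all 3, with fitted log2 differences of TetLowReg against TetHighProg of 0.04 (SE 4.11, edgeR adjusted p = 0.998) for Trp53, -0.06 (SE 3.75, 0.997) for Mdm2 and 0.56 (SE 4.32, 0.972) for Mdm4.

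Of 7 sensors and checkpoint kinases, none reached 10 counts in any TetHighProg library, where 16.4% of protein-coding genes did so in at least 1, and TetLowReg had 0, 4 and 2 of them by replicate and TetLowProg had 5, 0 and 3. Atm, the kinase that answers double-strand breaks, had 3, 0 and 0 counts in TetHighProg, 0, 228 and 20 in TetLowReg, and 247, 1 and 1860 in TetLowProg. Atr, which answers stalled replication, had 0, 831 and 26 counts in TetLowReg and 0, 0 and 4 in TetLowProg. The histone gene H2ax was found in TetLowProg replicates 9 and 12 alone, with 2701 and 3716 counts. Trp53bp1, whose product steers breaks toward end joining, had 0, 34 and 4 counts in TetLowReg, 1399, 0 and 818 in TetLowProg and none in TetHighProg. The checkpoint kinase genes Chek1 (288 counts) and Chek2 (1371) reached 10 counts in TetLowProg replicate 9 alone, and the scaffold gene Mdc1 (278) in TetLowReg replicate 7 alone. Tubgcp4 overlaps Trp53bp1 on the opposite strand and had 7693 counts in TetHighProg replicate 5, 4981 in TetLowReg replicate 8, and 1739 and 4989 in TetLowProg replicates 9 and 12, so counts of Trp53bp1 are uncertain. Parp1 overlaps another gene on its own strand alone (Mir6904, 0 counts in every library). In all, 25 of the 42 genes overlap a gene on the opposite strand and are uncertain in this way, though some of these partners had 0 counts throughout. Among them are Ogg1 with Camk1 (837 and 284 counts in TetLowReg replicate 7 and replicate 8), Msh6 with Fbxo11 (5638 in TetLowProg replicate 9), Palb2 with Dctn5 (8793 in TetHighProg replicate 5) and Xrcc4 with Tmem167 (1955 in TetLowProg replicate 9).

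In homologous recombination the genes were split over different libraries. Brca1 was found in TetLowReg replicates 7 and 8 (2412 and 123 counts) and at 0 in all other libraries, while Brca2 was found in TetLowReg replicate 8 (302) and TetLowProg replicates 9 and 12 (620 and 1433). Palb2, which bridges the products of these 2 genes, was at 8458 counts in TetHighProg replicate 5 and 4753 in TetLowProg replicate 9. No library held all 3 at 10 counts or more. The 3 subunits of the MRN complex, which binds broken ends, were as uneven. Mre11a had 0 counts in TetHighProg, 0, 497 and 1453 in TetLowReg, and 2578, 1 and 128 in TetLowProg. Rad50 had 363 counts in TetHighProg replicate 1, 217 and 2926 in TetLowReg replicates 7 and 8, and 5982 in TetLowProg replicate 12. Nbn had 82977 counts in TetHighProg replicate 2, the highest count of the list, and 2117 in TetLowProg replicate 9. Each of its values in the other libraries was 0 or 1. The single-strand binding protein genes Rpa1 and Rpa2 were both found in the 4 low avidity libraries with many genes, at 101 to 2128 counts for Rpa1 and 237 to 15683 for Rpa2, and had at most 1 count elsewhere.

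End joining was marked by Xrcc6. Xrcc6 and Xrcc5 encode the paired Ku70 and Ku80 proteins that clamp a broken end. Xrcc6 had 0, 29296 and 0 counts in TetHighProg, 29204, 721 and 82 in TetLowReg, and 543, 41 and 831 in TetLowProg, so its highest values fell in 2 libraries with few genes. Xrcc5 had 13967 counts in TetHighProg replicate 5, 4061 in TetLowReg replicate 7 and 4541 in TetLowProg replicate 9 and was at 0 in the other 6. The 2 Ku genes were both found in TetLowReg replicate 7 and TetLowProg replicate 9 alone. Prkdc, the kinase that joins them, had 0, 481 and 34 counts in TetLowReg and 1950, 0 and 0 in TetLowProg. Xrcc4, the partner of the ligase, had 0, 125 and 0 counts in TetLowReg and 2768, 0 and 254 in TetLowProg. Lig4, the ligase itself, had 20 counts in TetHighProg replicate 5 and 0 elsewhere.

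Parp2 was the most widely detected gene of the list. It encodes an enzyme that adds ADP-ribose at DNA nicks, and lies at chromosome 14, 51044948 to 51058759 on the plus strand. Its counts were 1506, 39828 and 57 in TetHighProg, 29043, 20 and 1094 in TetLowReg, and 6710, 3450 and 2462 in TetLowProg. The spread was narrowest in TetLowProg, at 133 ± 53.4 CPM, against 540 ± 895 and 462 ± 742 in TetHighProg and TetLowReg, and the groups overlapped. The start of Parp2 overlaps Rpph1, the RNA of RNase P, on the other strand. Rpph1 had 0 counts in every library, but Ccnb1ip1, which overlaps the same end on that strand, had 95 in TetHighProg replicate 5 and 35 in TetLowReg replicate 8. Reads of overlapping genes could not be told apart by strand, so the level of Parp2 is uncertain at that end. Parp1, its larger relative, was found in TetLowReg replicate 8 (2000 counts) and TetLowProg replicate 9 (11817) and had at most 5 counts elsewhere.

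The other base excision genes were scarce. Ogg1, the glycosylase that removes oxidized guanine, had 0, 870 and 121 counts in TetLowReg and 0, 0 and 325 in TetLowProg. Apex1, the nuclease of the next step, had 741 in TetLowReg replicate 7 and 390 in TetLowProg replicate 9. Xrcc1, the scaffold of single-strand break repair, had 0, 31 and 0 counts in TetLowReg and 742, 0 and 19 in TetLowProg. The uracil glycosylase gene Ung had 0 counts in all 9 libraries, Lig3 had 1 count in each of 2 and Lig1 reached 19. A group total of 0 allows up to 3 counts.

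In nucleotide excision repair, Ddb1 and Ddb2, which encode both subunits of a sensor of ultraviolet damage, were at 0 in TetHighProg. Ddb1 had 0, 5666 and 2 counts in TetLowReg and 9348, 0 and 8802 in TetLowProg. Ddb2 had 0, 129 and 1284 counts in TetLowReg and 1791, 0 and 0 in TetLowProg. Ddb1, which also serves ubiquitin ligases outside repair, was thus low in the TetLowReg library with the most Ddb2. Xpa, which checks the lesion, had 0, 63 and 932 counts in TetLowReg and 1, 0 and 3468 in TetLowProg, and Ercc1, part of a nuclease, had 1522 in TetLowReg replicate 8 and 1178 in TetLowProg replicate 9. Xpc was found at 102 counts in TetHighProg replicate 5 and 30 in TetLowReg replicate 8. The mismatch repair gene Msh6 had 0, 33 and 9 counts in TetLowReg and 4104, 0 and 1 in TetLowProg, with 0 in TetHighProg.

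**Figure D4:**
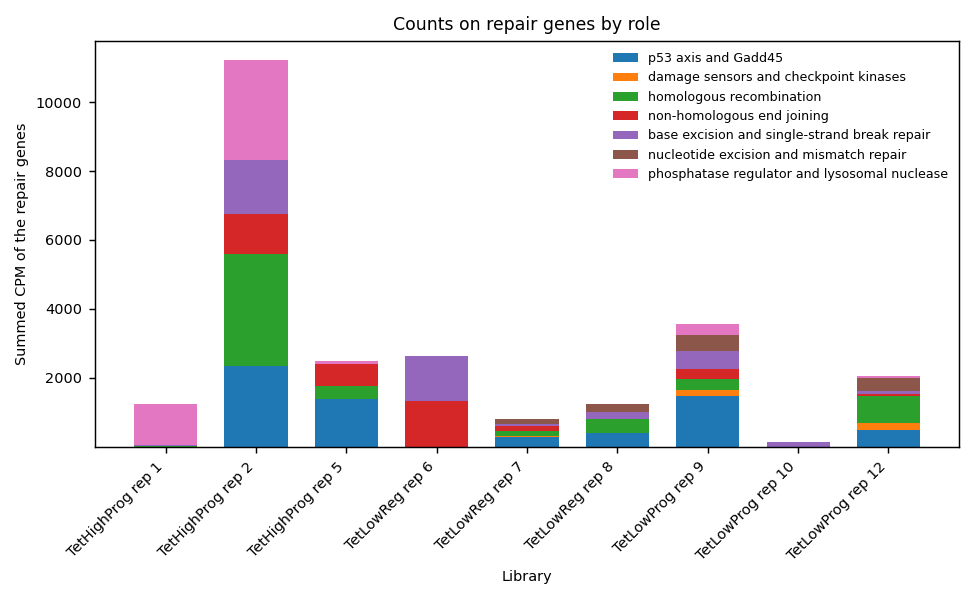
Summed CPM of the repair genes in each library, stacked by role (not per kilobase). TetHighProg replicate 2 is highest through 5 genes, TetLowReg replicate 6 is made up by Xrcc6 and Parp2, and nucleotide excision genes are visible in the 4 low avidity libraries with many genes.

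A single gene could make up most of a library's repair counts. Ppp1r10 was 53.7% of them in TetHighProg replicate 1 and, with Dnase2a, 95.5%. Xrcc6 was 50.1% in TetLowReg replicate 6, where Parp2 made up the rest, and Parp2 was 98.7% in TetLowProg replicate 10. In the 5 libraries with more genes the largest gene held 15.3% (Gadd45b, TetLowProg replicate 9) to 30.8% (Mdm2, TetHighProg replicate 5). In CPM per kilobase of exon, averaged over the 9 libraries, the order was Gadd45a (174), Nbn (102), Parp2 (87.0), Ppp1r10 (57.2) and Xrcc6 (57.1). Their values in single libraries ran from 0 or near 0 to far above these means, so neighbors in that order were not separated. By the median over the 9 libraries Parp2 (18.0) and Mdm2 (12.6) came first.

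Counts were compared between groups with the quasi-likelihood test of edgeR over 5813 genes, and a gene was called at an adjusted p under 0.05 and a log2 fold change beyond 2 in size. Of the 42 genes, 25 had enough counts to enter the test. The others were too sparse, and a gene that entered through one group alone had to differ, so values over the 25 describe the genes that passed and are no evidence on the list. In the comparisons with TetHighProg the tools gave different calls on the same counts. Neither a count of 0 by edgeR nor a call by DESeq2 or limma-voom therefore settles whether a gene differed.

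For low avidity cells from regressing tumors against high avidity cells from progressing tumors, no repair gene was called (0 of 25, with 0% of all genes called). At an unadjusted p under 0.05, with the same fold limit, 5 of the 22 genes that the study had not picked passed (22.7%), against 19.5% of all genes tested. The 5 (Ddb1, Ddb2, Mre11a, Ogg1 and Rpa1) were higher in TetLowReg, a direction in which 19% of all genes passed. Each of the 5 had 0 counts in the 3 TetHighProg libraries and in TetLowReg replicate 6, so the libraries overlapped.

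Over summed counts, and with 3 counts taken as the limit of a group at 0, the level in TetLowReg was at least 2055-fold higher for Ddb1, at least 707-fold for Mre11a, at least 561-fold for Rpa1, at least 512-fold for Ddb2 and at least 359-fold for Ogg1. The fitted log2 fold changes were 14.30 (SE 6.76), 13.21 (SE 6.53), 12.98 (SE 6.50), 12.83 (SE 6.33) and 11.87 (SE 5.76), each at an edgeR adjusted p of 0.233. Those fitted values depend on the small count that edgeR adds to zeros. The large figure for Ddb1 came from replicate 7, and without that library its log2 fold change was 3.95. Replicate 8 held most counts of Rpa1 and Ddb2 and replicate 7 most of Ogg1, and without that library their log2 fold changes were 9.15, 9.5 and 9.79. That of Mre11a was 11.44 without replicate 8. Xpa (12.34, SE 6.32), Brca2 (10.65, SE 5.56) and Xrcc4 (8.80, SE 5.02) followed, with edgeR adjusted p of 0.233, 0.233 and 0.245. Brca2 rested on replicate 8 and Xrcc4 on replicate 7, and without that library each was at a fold change of 0.00. Xpa was at 8.47 without replicate 8.

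Among those 22, 18 fitted changes were positive and 4 negative (81.8% positive), where 72.7% of all genes tested were positive. Their median log2 change was 8.09 (6.13 once limits replaced the fits of genes absent from a group), against 4.82 over all genes. With the 3 picked genes, all negative, 18 of 25 were positive (72.0%) and the median was 7.16. Of the genes the study had not picked, 0 had TetLowReg libraries all on one side of the TetHighProg libraries. Of protein-coding genes 1.92% did, and of genes tested 5.8%. The picked Ppp1r10 did, which is a description of a gene chosen for that difference. Without TetLowReg replicate 6, 15 genes did not overlap, 14 of them higher in TetLowReg and the other Ppp1r10, against 22% of protein-coding genes. When the 4 libraries with the fewest genes were left out, 26 of 42 genes did not overlap, 16 higher and 10 lower in TetLowReg, against 33.6% of protein-coding genes. The 10 include the 3 picked genes, and TetHighProg was then a single library set against 2, so nothing about the list is read from this count. edgeR called no repair gene there.

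**Figure D5:**
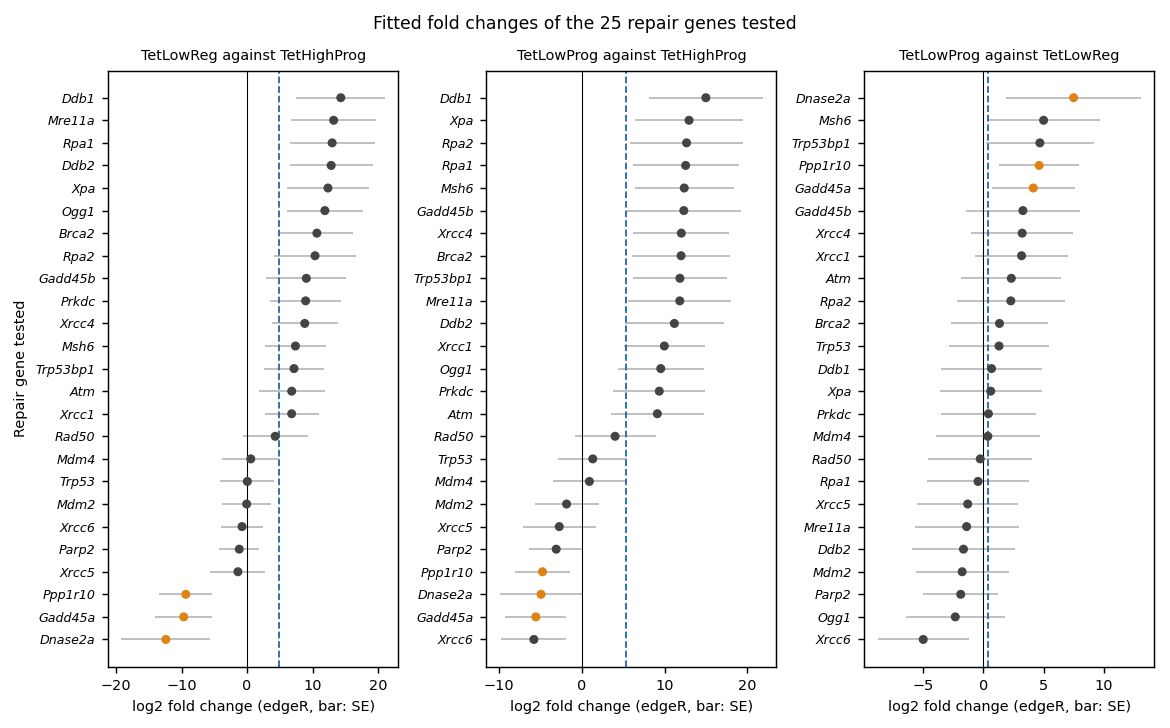
Fitted log2 fold changes of the 25 repair genes that entered the test, with bars of 1 standard error, in the 3 comparisons (edgeR, 3 libraries a group). Orange marks the 3 genes the study singled out, whose values are a description only, and the dashed line is the median over all 5813 genes, at 4.82, 5.40 and 0.35.

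The call depended on the tool in this comparison. DESeq2 on the 3 groups, with default size factors, called 8 of the 14 unpicked repair genes with an adjusted p (57.1%), all higher (Brca2, Ddb1, Ddb2, Mre11a, Ogg1, Rpa1, Rpa2 and Xrcc4), against 38.3% of all genes with an adjusted p (37.4% higher). limma-voom with sample weights called 9 of the 22 (40.9%), all higher, against 41.5% of all genes (41.3% higher). Those 9 included Trp53, Mdm2 and Mdm4, which edgeR fitted near 0 and DESeq2 did not call. DESeq2 run on the 2 groups alone called none of 4 (3.5% of all genes), with poscounts size factors 5 of 15 (28.7%), and on the 2 groups with no filter 8 of 14 (34.1%).

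For low avidity against high avidity cells of progressing tumors, no repair gene was called by edgeR (0 of 25, with 0% of all genes called). This comparison shares the TetHighProg libraries with the one above. At an unadjusted p under 0.05, 8 repair genes passed, all higher in TetLowProg, against 25.4% of all genes tested (24.8% higher). They were Brca2, Ddb1, Msh6, Rpa1, Trp53bp1, Xpa, Xrcc1 and Xrcc4, and each was at 0 in all TetHighProg libraries. Over summed counts the level was at least 5298-fold higher for Ddb1, at least 1198-fold for Msh6, at least 882-fold for Xrcc4, at least 647-fold for Trp53bp1 and at least 599-fold for Brca2.

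The fitted log2 fold changes of those 5 were 14.98 (SE 6.91), 12.37 (SE 5.95), 12.02 (SE 5.80), 11.85 (SE 5.69) and 11.99 (SE 5.88), each at an edgeR adjusted p of 0.193. Msh6 rested on replicate 9, without which its log2 fold change was 2.10. Xrcc4 was at 9.68 without the same library and Brca2 at 10.57 without replicate 12. No overlap between these groups was seen for 1 of 42 genes (2.38%), where 2.11% of protein-coding genes and 7.17% of genes tested had none. This gene was Mre11a, and TetLowProg replicate 10 contributed just 1 count to that. Its level was 0 CPM in TetHighProg and 25.02 ± 39.82 CPM in TetLowProg (p = 0.1 by exact permutation, two-sided, and no smaller value is possible with 3 libraries a group). Without TetLowProg replicate 10, 15 of 42 genes did not overlap, all higher in TetLowProg, against 17.4% of protein-coding genes higher in this way. Without the 4 libraries with the fewest genes it was 24, 17 higher and 7 lower, against 28.3%. The 7 include the picked Gadd45a and Dnase2a, TetHighProg was again 1 library against 2, and nothing is read from it.

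Of the 22 unpicked genes 18 fitted changes were positive (81.8%, against 73.5% of all genes), with a median of 10.57, or 9.18 with limits in place, against 5.40 over all genes. With the 3 picked genes it was 18 of 25 (72.0%), with a median of 9.54. DESeq2 with default size factors called 11 of 14 repair genes with an adjusted p, all higher (46.4% of all genes were called, 46.1% higher), and limma-voom called 13 of 22, all higher (49.9%, 49.6% higher). These 2 fits both called Atm, Brca2, Ddb1, Gadd45b, Mre11a, Rpa1, Rpa2, Trp53bp1 and Xrcc4. DESeq2 called 3 of 15 unpicked genes with poscounts size factors (Brca2, Ddb1 and Ddb2, against 29.4% of all genes), 0 of 3 on the 2 groups alone (7.31%) and 9 of 12 on them with no filter (45.8%). The 3 picked genes had log2 fold changes of -4.72 (SE 3.32) for Ppp1r10, -5.53 (SE 3.66) for Gadd45a and -4.90 (SE 5.01) for Dnase2a. Without the 4 libraries with the fewest genes that of Ppp1r10 turned to 2.09, and with limma-voom those of Gadd45a and Dnase2a were -0.47 and -0.06. Without TetHighProg replicate 2 those of Ppp1r10 and Gadd45a were -2.57 and -2.24, and that of Dnase2a ran from -9.63 (without TetLowProg replicate 12) to -2.02 (without TetHighProg replicate 1).

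The low avidity groups were compared with each other to see whether the fate of the tumor went with a difference in these genes. edgeR called no repair gene (0 of 25, with 0% of all genes called), and none passed an unadjusted p of 0.05 (0.912% of all genes did). limma-voom called none either (0% of all genes). DESeq2 called none with default size factors (0.605% of all genes), with poscounts (0.462%), on the 2 groups (0.0689%) or on them with no filter (0.297%). No gene of the 42 separated the 2 groups, where 1.2% of protein-coding genes and 3.42% of genes tested did. The lowest unadjusted p belonged to Xrcc6, with a log2 fold change of -4.99 (SE 3.79, edgeR adjusted p = 1). Its high TetLowReg mean, 450 ± 758 CPM against 14.3 ± 12.4 CPM in TetLowProg, came from replicate 6. Msh6 (5.0, SE 4.69), Trp53bp1 (4.69, SE 4.50), Xrcc4 (3.22, SE 4.26) and Xrcc1 (3.17, SE 3.88) had fitted differences close to or below their standard errors (edgeR adjusted p = 1 for each).

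Without TetLowProg replicate 9 the changes of Msh6 (-5.11) and Xrcc1 (-0.72) turned over. With 1 library left out, Xrcc6 ran from -5.82 to -0.75, Xrcc4 from 1.0 to 12.41 and Trp53bp1 from 4.02 to 7.2. Some genes were found in one of the 2 groups alone. Brca1 was at least 1049-fold lower in TetLowProg and H2ax at least 1722-fold higher, yet each was at 0 in 1 library of its high group (exact permutation test, p = 0.4 for both). The median log2 change was 0.52 over the 22 unpicked genes and 0.68 over all 25, against 0.35 over all genes. Without the 4 libraries with the fewest genes 15 of the 42 genes did not overlap, against 19.6% of protein-coding genes. Without TetLowProg replicate 10, 12 of the 42 genes lay higher in every TetLowProg library, against 10% of protein-coding genes. These included Trp53, Gadd45b, Atm, H2ax and Ddb1, and also the picked Ppp1r10, Gadd45a and Dnase2a. TetLowReg kept its replicate 6, with few genes, in that count. When that library was left out instead, 3 of the 42 genes did not overlap, against 9.78% of protein-coding genes. Of protein-coding genes 44.4% reached 10 counts in no library, against 4.76% of the list, so nothing about the list is read from these counts.

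Other genes of the pathway were described beside the list. Of 137 further genes, 48 entered the edgeR test and none was called in any comparison. At an unadjusted p under 0.05, 7 were higher and none lower in TetLowReg than in TetHighProg (19.5% of all genes passed). In TetLowProg against TetHighProg 11 were higher and 1 lower (25.4% of all genes passed), and between the low avidity groups 1 was lower (0.912%). Dnase1l3, an extracellular nuclease gene typical of dendritic and other myeloid cells, had 2, 208951 and 29368 counts in TetLowReg, 0, 1 and 56715 in TetLowProg, and at most 1 in TetHighProg. Its log2 fold change was 17.95 (SE 4.47, edgeR adjusted p = 0.233) in TetLowReg and 15.16 (SE 4.16, 0.193) in TetLowProg against TetHighProg.

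The 3 libraries with Dnase1l3 were also those with at least 4 of the 5 B cell markers. Without the 4 libraries with the fewest genes, edgeR called Dnase1l3 in both comparisons with TetHighProg (0.0232% of all genes were called). TetHighProg was then replicate 5 alone, which the fit assumes to vary like the low avidity groups. Wrn, a helicase gene of recombination, had 0, 129768 and 0 counts in TetHighProg, 0, 472 and 1884 in TetLowReg, and 1, 0 and 0 in TetLowProg (log2 fold change -18.01, SE 4.84, edgeR adjusted p = 0.193, against TetHighProg). Between the low avidity groups Wrn changed by -12.21 (SE 4.09, edgeR adjusted p = 1), Ercc8 by 6.54 (SE 4.87, 1) and Dnase1l3 by -2.79 (SE 2.56, 1). The p53 target Bax was at 0 in TetHighProg and at least 3863-fold higher in TetLowProg over summed counts (log2 fold change 14.90, SE 7.04, edgeR adjusted p = 0.193). Ccng1, a p53 target, and Ppp1r8, a regulator of protein phosphatase 1, were at 0 in TetHighProg, with 0, 5362 and 2018 counts of Ccng1 and 0, 1667 and 18 of Ppp1r8 in TetLowReg (log2 fold changes 14.86, SE 7.06, and 12.56, SE 6.17, edgeR adjusted p = 0.233 for both). Bax, Ccng1 and Ppp1r8 thus entered the test through the low avidity groups alone and had to differ, so their fits are a description.

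By role, the groups of other genes differed in how many were tested. Of 20 other p53 targets, 10 entered the test, with 3 higher at an unadjusted p under 0.05 in each comparison with TetHighProg (Bax, Ccng1 and Tigar, and Bax, Fas and Ppm1d). Each of these was at 0 in all TetHighProg libraries, so it entered the test through the other groups and had to differ. Cdkn1a and Btg2 were not at 0 there. Cdkn1a had 48119, 0 and 17472 counts in TetHighProg, 2, 19713 and 8536 in TetLowReg, and 3393, 0 and 19985 in TetLowProg. Btg2 had 20265, 0 and 29835 counts, then 1762, 20567 and 14830, then 20977, 90466 and 9733. Of 14 other base excision genes none had enough counts, and of 18 other recombination genes 3 did. Of 8 partners of Ppp1r10 and protein phosphatase 1, 7 were tested. Of these, Ppp1cc, Wdr82, Tox4 and Ppp1r8 were at 0 in all TetHighProg libraries, so they entered the test through the other groups and had to differ. One of the 7 passed the unadjusted limit in TetLowReg (Ppp1r8) and 3 in TetLowProg (Ppp1cc, Tox4 and Wdr82), all higher, where 19.5% and 25.4% of all genes passed.

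Genes whose log2(CPM + 1) over the 9 libraries was among the most like that of Gadd45a were Thy1 (Pearson r = 0.95), Dusp5, Hcst and Azin1 (0.93 each). Thy1, a T cell surface gene, had 2, 49904 and 2674 counts in TetHighProg, 5, 216 and 97 in TetLowReg, and 4760, 0 and 315 in TetLowProg. The points share the libraries' depth and number of genes detected, and the values are a description over 9 libraries. The comparison covered tested genes alone, so sparse members such as Nbn and Palb2 were not ranked. Among the tested members Ppp1r10 had r = 0.67 (rank 81 of the genes tested), and both genes were picked for the same difference between groups. Xrcc5 (0.36), Mdm4 (0.32) and Trp53 (0.30) were lower. Dnase2a was at 0.05.

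Promoters were read for 36 of the 42 genes (41 promoters, each 300 bases from 250 before to 50 after the start, RefSeq on GRCm38.p6). The GC box GGGCGG was in 65.9% of them against 35.7% of all 32851 promoters, CCAAT in 51.2% against 37.4%, and TATAAA in 14.6% against 13.6%, each on either strand. The E2F motif TTTCCCGC, which binds factors that switch on genes of DNA synthesis, was in 5 (12.2%), those of Brca2, Chek2, Mdc1, Msh6 and Xrcc6, against 1.07% of all promoters. The second E2F form, TTTGGCGC, was in none of the 41 and in 0.514% of all.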

How the data were processed

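RNA of sorted tumor-infiltrating CD8+ T cells was sequenced in 9 libraries (3 groups of 3). Per the labels and the study's methods, the authors aligned reads to GRCm39 with STAR 2.7.6a. The deposited values are raw counts per gene in STAR's layout, read without strand, while featureCounts is also named and the annotation release is not given in the sources used here. Summary lines (40.3% to 59.9% of reads) were left out, and gene counts ran from 16405306 to 36429515 a library. Names, positions and exon lengths came from GENCODE (28645 of 32976 IDs matched).

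Counts were filtered with filterByExpr, scaled by TMM and fitted over the 3 groups with edgeR 4.0.16 (R 4.3.3), with Benjamini-Hochberg adjustment over all genes tested. The code was tested on simulated data. At a low spread all tools recovered the changed genes. At a spread estimated from the libraries, edgeR and limma-voom recovered 0 of 200, and DESeq2 recovered 16 with 459 false calls. There limma-voom also made 0 false calls, while in the real counts it called 41.5% of all genes in TetLowReg against TetHighProg. How far the simulated data match these libraries was not tested, and no tool is preferred from them. Detection meant at least 10 counts. CPM are per 1000000 gene counts, and a group total of 0 was set to 3 counts. Alternatives were DESeq2 1.42.0, limma 3.58.1, other filters and scalings, and leaving out libraries. The genes and lists were chosen with earlier results of these data known. All 42 genes are named. Fold changes are given for the 8 genes with the lowest p in TetLowReg against TetHighProg, the 5 lowest in each other comparison and the 3 lowest other pathway genes in each, leaving out the 3 genes the study picked, which are described without a test. The fits of Trp53, Mdm2, Mdm4 and Gadd45b and the tests of Gadd45g, Brca1 and H2ax fall outside that rule and were chosen after their values were seen. One gene among those most like Gadd45a is not reported here.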

Additional observations from a re-analysis of the deposited data

How the results depend on the processing

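No paired analysis was possible because the groups share no replicate numbers and the labels do not tie the TetHighProg and TetLowProg libraries to the progressing tumors that both came from, so the fit ignores any shared tumor. The counts of calls here include the 3 genes the study picked. The number of repair genes called by edgeR in TetLowReg against TetHighProg, 0, became 11 with DESeq2 and default size factors, 6 with poscounts size factors, 10 with limma-voom, 2 with DESeq2 on the 2 groups, 11 with that fit and no filter (chosen after seeing the data) and 7 at an unadjusted p, where 38.3%, 28.7%, 41.5%, 3.5%, 34.1% and 19.5% of all genes were called. Without the picked genes these counts are 8, 5, 9, 0, 8 and 5, so the 2 calls of DESeq2 on the 2 groups were both of picked genes. In TetLowProg against TetHighProg it became 11, 4, 13, 9 (2 groups, no filter) and 8, where 46.4%, 29.4%, 49.9%, 45.8% and 25.4% of all genes were. Other pathway genes went from 0 to 17, 8, 21, 1, 7 and 7 in the first comparison and to 19, 12, 26, 1, 15 and 12 in the second, in the same order. Leaving out the 4 libraries with the fewest genes gave 1 in both, and leaving out 1 replicate gave 0 to 1 in the first (Dnase1l3, without TetLowProg replicate 9). Between the low avidity groups 1 other gene passed an unadjusted p. Genes whose libraries did not overlap went from 1 to 26, from 1 to 24 and from 0 to 15 without those 4 libraries (33.6%, 28.3% and 19.6% of protein-coding genes, with TetHighProg at 1 library), and ran from 1 to 15, from 1 to 15 and from 0 to 12 when 1 replicate was left out. A strict filter took the second of these to 0. Between the low avidity groups Msh6 turned to -1.21 with limma-voom and ran from -5.11 (without TetLowProg replicate 9) to 6.75 when 1 replicate was left out, and Xrcc1 from -0.72 (without the same library) to 10.39. The cause was not tested. With 3 libraries a group, an exact permutation test cannot go below p = 0.1.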
